A study of Mus musculus with 12 samples.

Results

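Total liver RNA of 3 mice lacking Maf1 (Maf1 KO, mice KO1, KO2 and KO4) was compared with that of 3 wild-type mice (WT1, WT2 and WT3), gene by gene, over the 11587 genes with a name in the deposited table. These 6 libraries are the total RNA arm of a series of 12, whose other 6 libraries hold ribosome footprints of the same livers. All mice were C57BL/6 and were killed at 9 PM. Their labelled age was 12 to 14 weeks and their labelled feeding state refed, whereas the study's methods put the age at 12 weeks and the feeding as ad libitum. The knockout was of the whole animal, so non-hepatocyte cells of the liver lacked the gene too. Livers were lysed in polysome buffer, and 1 part of Drosophila S2 cell material to 15 parts of mouse material was mixed in as a standard before the RNA was divided between both kinds of library. The level of Maf1 was not analysed here, and the labels of genotype could therefore not be checked against it.

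MAF1 is a repressor of RNA polymerase III, the enzyme that makes tRNAs, 5S ribosomal RNA and other short structural RNAs. Phosphorylation by mTORC1 and other kinases weakens its hold on the polymerase. The mRNAs compared here are made by RNA polymerase II, and in the liver those of lipid synthesis, fatty acid oxidation and hormone response vary with feeding and with the time of day.

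A gene's value was the mean log2 tag score of its transcripts minus the median gene of the same library, called the centred score. A centred score of 1 lies 2-fold above the median gene. Before centring, library medians were 9.34, 8.75 and 8.83 in Maf1 KO and 9.01, 9.04 and 8.83 in WT. The number of reads behind a score is unknown, so no counting interval can be given. Pearson's r between libraries, taken over genes, was 0.983 to 0.988 within a genotype and 0.975 to 0.987 between genotypes, and genes are not independent replicates. The first principal component, 31.3% of the variance, set KO2 (27.4) and WT1 (-22.2) furthest apart. The liver identity of the samples was plain: Alb, the plasma albumin gene, had centred scores of 11.74, 12.29 and 12.01 in Maf1 KO and 11.21, 12.24 and 12.20 in WT, and none of 18 hepatocyte markers had an unadjusted p under 0.05.

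Most mRNAs differed little between the genotypes. The 0.05 and 0.95 quantiles of the log2 difference (Maf1 KO minus WT) were -0.35 and 0.45, and the 0.01 and 0.99 quantiles -0.59 and 0.76. Differences of at least 1 upward were seen in 31 genes and of at least 1 downward in 21. In limma, with p-values adjusted over the whole table by Benjamini-Hochberg and a threshold of 0.05, 2 of 11587 genes passed (0.0173%), Cdkn1a and Me1, both higher in Maf1 KO. At a threshold of 0.2 the counts were 21 higher and 9 lower. At an unadjusted p under 0.05, 983 genes (8.48%) were counted, of which 545 were higher (4.7%) and 438 lower (3.78%) in Maf1 KO. The 3 Maf1 KO values lay wholly above the 3 WT values in 802 genes (6.92%) and wholly below in 814 (7.03%). The difference was above 0 in 5400 genes (46.6%) and below 0 in 6187 (53.4%). These shares, taken over genes of every abundance, are the background for every count of gene list members given here. Of genes other than Cdkn1a and Me1, values are described without a call.

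The difference moved with abundance. Its median was 0.11 in the least abundant quintile of genes, then 0.03, -0.02, -0.05 and, in the most abundant quintile, -0.07, while the SD of the differences was 0.34 in the lowest quintile and 0.20 in the highest. Cyclic loess, a normalization that removes offsets following abundance, brought these medians to between -0.01 and 0.00 and was added after the data were seen. Over quintiles of coding length the median ran between -0.04 and 0.02. Counts at an unadjusted p under 0.05 in limma also moved with abundance. The least abundant quintile (2318 genes) held 219 higher and 61 lower, and the most abundant (2318 genes) 46 higher and 167 lower. For lists of abundant or scarce genes, the shares over all genes are thus a rough background only. Small shifts of lists made of abundant genes are given with their value after cyclic loess.

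**Figure D1:**
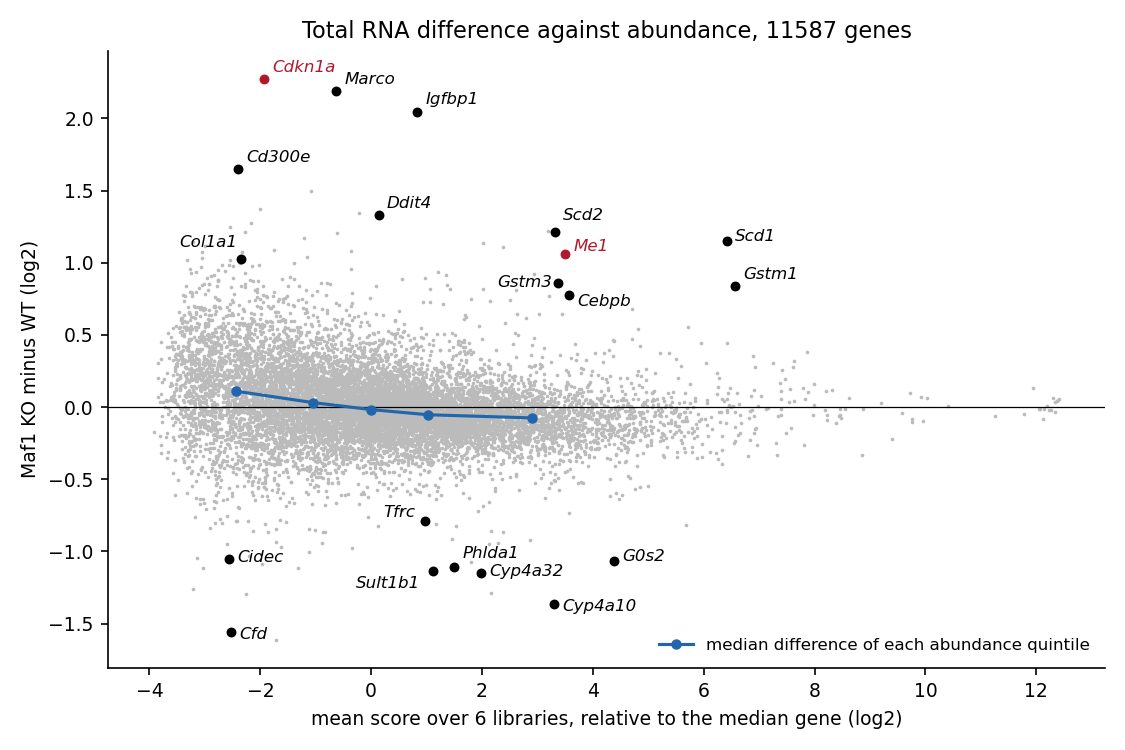
Log2 difference in total RNA (Maf1 KO minus WT, y axis) against the mean centred score over 6 libraries (x axis, log2 relative to the median gene), with a grey point for each of 11587 genes, red for the 2 genes past the adjusted threshold, black for other genes described in the text, and a blue line for the median of each abundance quintile. Cdkn1a stands at 2.27 among genes of low abundance, and the blue line runs between 0.11 and -0.07.

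Cdkn1a, the gene of the cyclin-dependent kinase inhibitor p21 (chromosome 17, 29227924 to 29237667, plus strand, NCBIM37), rose 4.84-fold in Maf1 KO. Its centred scores were -0.71, -0.69 and -1.01 in KO1, KO2 and KO4, against -3.34, -2.94 and -2.96 in WT1, WT2 and WT3. The lowest Maf1 KO liver, KO4, stood far above the highest WT liver, WT2. The difference was 2.27 (SE 0.19, limma adjusted p = 0.0047) and stayed between 2.15 and 2.38 when any 1 mouse was left out. Without KO1, its adjusted p was 0.0648. In WT livers Cdkn1a lay near the bottom of the measured range, below the 0.25 quantile of mean scores. Footprints of the same livers differed by 0.70 (adjusted p = 1.00), with 1.56, 1.31 and 1.15 in Maf1 KO against 0.14, -1.02 and 2.82 in WT, where WT3 was above all Maf1 KO livers.

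Cdkn1a was on a list of 23 measured growth arrest and p53 target genes, whose median was -0.06 beside -0.02 for all genes. Of these, 7 were higher and 16 lower in Maf1 KO, and 3 had an unadjusted p under 0.05 (all higher): Cdkn1a, Gadd45g (1.21), a stress-induced growth arrest gene, and Cdkn2c (0.69), which encodes the kinase inhibitor p18. Without WT3 the count was 5. Among 18 cell cycle and replication genes, 13 were higher and 5 had an unadjusted p under 0.05, all higher, with a list median of 0.17 (0.13 after cyclic loess). They were Ccnd1 (0.79), which encodes cyclin D1, the mitotic kinase gene Cdk1 (0.74) and the replicative helicase genes Mcm6 (0.77), Mcm2 (0.67) and Mcm3 (0.46). Without KO4 the count of 5 was 2, and without WT3 it was 3. All but Ccnd1 had mean centred scores below -1, the range in which values were least precise.

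Me1 (chromosome 9, 86474970 to 86589947, minus strand), cytosolic malic enzyme, which makes NADPH for fatty acid synthesis, rose 2.09-fold. Its centred scores were 4.01, 4.01 and 4.09 in Maf1 KO and 2.92, 3.11 and 2.90 in WT. The livers of each genotype lay close together, and the difference of 1.06 (SE 0.11, limma adjusted p = 0.0157) kept to 1.02 to 1.13 with any 1 mouse left out. The call did not outlast the loss of any mouse: its adjusted p was 0.0512 to 0.118 with each mouse left out, and 0.141 with a common prior variance. Footprints of Me1 differed by 1.11 (adjusted p = 0.513). No stretch of 30 coding bases of Me1 occurs in its relatives Me2 and Me3, so reads of this length are not shared among them.

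**Figure D2:**
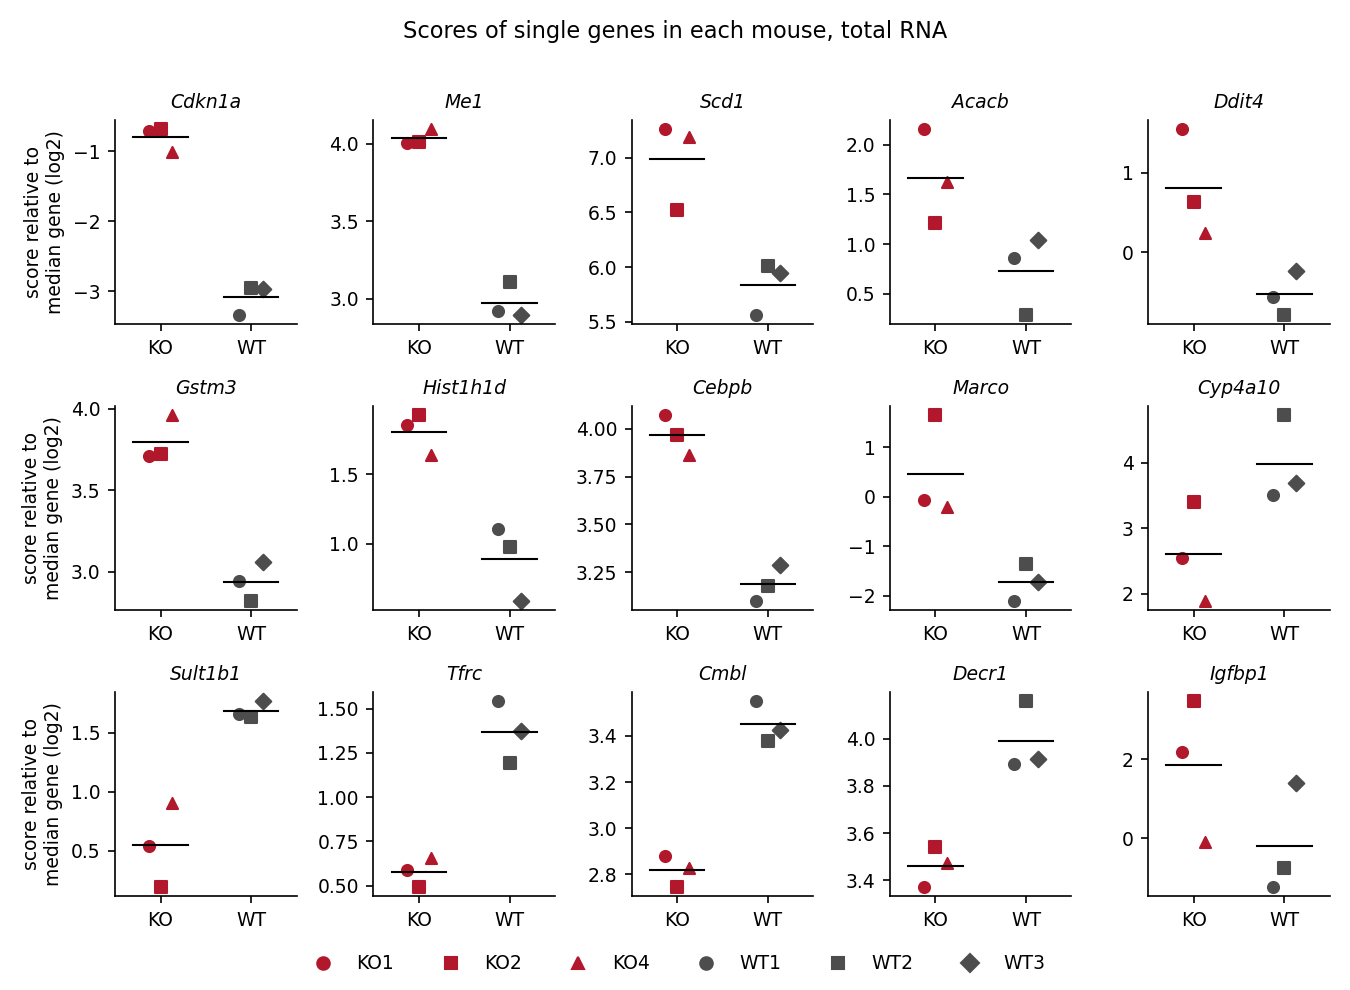
Centred scores (y axis, log2 relative to the median gene of the library) of 15 genes in each of 3 Maf1 KO livers (red, left) and 3 WT livers (grey, right), a symbol per mouse and a line at the mean of each genotype. The genotypes overlap in the panel of Igfbp1, where WT3 (1.40) lies above KO4 (-0.10), and in no other panel.

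Lipid synthesis genes were divided. Of 26 measured genes of de novo lipogenesis and desaturation, 17 were higher and 9 lower in Maf1 KO, the median was 0.10 (0.18 after cyclic loess), and 7 had an unadjusted p under 0.05, all of them higher. Besides Me1 these were the 4 stearoyl-CoA desaturases, which place the double bond of monounsaturated fatty acids. The others were Acacb, the mitochondrial acetyl-CoA carboxylase, and Elovl3, a fatty acid elongase (0.64, with KO4 below all WT livers). The desaturases share coding sequence, so they do not count as 4 separate genes. Without KO1 the list median was 0.05, with 6 higher and 2 lower at an unadjusted p under 0.05. Scd1 had centred scores of 7.26, 6.52 and 7.19 in Maf1 KO and 5.56, 6.01 and 5.94 in WT, a difference of 1.15 (SE 0.22, limma adjusted p = 0.195). KO2 was the lowest of the Maf1 KO livers and still above all WT livers. Acacb had 2.15, 1.22 and 1.63 in Maf1 KO and 0.86, 0.29 and 1.04 in WT (0.94, SE 0.25, adjusted p = 0.388). Fasn, fatty acid synthase, overlapped between genotypes with 4.65, 3.90 and 3.12 in Maf1 KO against 4.11, 3.06 and 3.20 in WT, and its difference of 0.44 became 0.05 without KO1. Acaca, the cytosolic carboxylase, differed by 0.11 and Srebf1, the gene of the lipogenic transcription factor SREBP1, by -0.34.

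The Scd genes lie side by side on chromosome 19 and share coding sequence, which limits what their separate values say. Of all windows of 30 coding bases, 37.8% in Scd1, 33.1% in Scd2, 37.7% in Scd3 and 21.3% in Scd4 occur in another Scd gene. Across the 6 libraries the gap between Scd2 and Scd3 had an SD of 0.03, and these genes differed by 1.22 each between genotypes, with Scd4 at 1.11. The gap of Scd1 to Scd2 had an SD of 0.09 and that of Scd1 to Scd4 an SD of 0.04. The following 60 coding bases, which span 2 exons, are the same in all 4 genes, so a read within them cannot be placed.
Scd1, chr19:44474855-44476232, minus strand, NCBIM37: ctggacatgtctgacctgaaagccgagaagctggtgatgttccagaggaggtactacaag
Scd2, chr19:44374255-44375711, plus strand, NCBIM37: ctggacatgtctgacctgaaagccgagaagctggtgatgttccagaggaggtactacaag

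Genes on a list of NADPH supply were split. Of 13 measured, 5 were higher and 8 lower, with a median of -0.09, and 4 had an unadjusted p under 0.05, all higher. In addition to Me1 these were 3 genes of the pentose phosphate pathway. Pgd, phosphogluconate dehydrogenase, had centred scores of 0.73, 0.72 and 0.70 in Maf1 KO and 0.25, 0.20 and 0.16 in WT (0.51, SE 0.12, limma adjusted p = 0.275). G6pdx, glucose-6-phosphate dehydrogenase, the first enzyme of the pathway, had -1.02, -1.25 and -0.93 in Maf1 KO and -1.77, -1.75 and -1.80 in WT (0.71, SE 0.16, adjusted p = 0.275). In both genes the 3 WT livers lay close together and below every Maf1 KO liver. Tkt, transketolase, which does not itself make NADPH, differed by 0.30.

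The same enzymes are also on a list of NRF2 targets, genes of the oxidative stress and detoxification response. Of 27 measured, 22 were higher and 5 lower, the median was 0.24 (0.30 after cyclic loess), and 12 had an unadjusted p under 0.05 with higher values against 1 with lower. The lower one was Osgin1, an oxidative stress induced growth inhibitor (-0.63). The median ranged from 0.15 without KO2 to 0.35 without KO1. Many of these 12 were glutathione S-transferases, which join glutathione to foreign or oxidized compounds. Gstm3 had centred scores of 3.71, 3.72 and 3.96 in Maf1 KO and 2.94, 2.82 and 3.06 in WT, a difference of 0.86 (SE 0.12, limma adjusted p = 0.108). Gstm1 had 6.64, 7.31 and 7.01 in Maf1 KO against 5.96, 6.32 and 6.17 in WT (0.84, SE 0.19, adjusted p = 0.275). Both groups stood apart in each gene. Gstm2 differed by 0.75, Gstm4 by 0.50, Gsta1 by 0.50 and Gsta2 by 0.45. Shared coding windows reached 40.9% in Gstm3, 32.2% in Gstm1 and 11.5% in Gstm2, so the reads of these paralogs cannot all be told apart. Hmox1, heme oxygenase and a defining NRF2 target, had 0.17, 1.04 and 0.42 in Maf1 KO and 0.15, 0.40 and 0.41 in WT (0.22), and Nqo1, a quinone reductase, differed by 0.39.

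The core of the antioxidant response element, the DNA word NRF2 binds (TGACNNNGC, either strand), was looked for in the 250 bases before the start of each gene in RefSeq (GRCm38.p6). It occurred in 10.2% of all 32851 windows. Of the 22 NRF2 list members that have a window, 5 held it in any of their windows (22.7%), a count by gene and not by window. Of the 11 members with a window that were higher at an unadjusted p under 0.05 in limma, 1 held it, G6pdx. The stretch of G6pdx is shown because it holds that match, in capitals, read on the opposite strand and ending 48 bases before the start. A match is a description of letters and not a binding site.
G6pdx, chrX:74428904-74428962, minus strand, GRCm38.p6: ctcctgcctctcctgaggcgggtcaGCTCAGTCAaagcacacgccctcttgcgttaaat

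Genes listed as induced by glucocorticoids, the adrenal stress and fasting hormones, were mostly higher in Maf1 KO. Of 22 measured, 18 were higher and 4 lower, 12 had an unadjusted p under 0.05 (all higher), 9 did not overlap between genotypes (all higher), and the median was 0.47 (0.54 after cyclic loess). Per mouse, the median deviation of the list from the mean of the 6 livers was 0.27, 0.39 and 0.11 in Maf1 KO and -0.31, -0.31 and -0.08 in WT. KO4 was the lowest of the Maf1 KO livers and WT3 the highest of the WT livers. Without KO2, 7 members had an unadjusted p under 0.05, with a median of 0.46. Cebpb, a transcription factor of the liver's hormone and acute phase responses (chromosome 2, 167514415 to 167515918), had centred scores of 4.07, 3.97 and 3.86 in Maf1 KO and 3.10, 3.18 and 3.29 in WT (0.78, SE 0.11, limma adjusted p = 0.117). Its relative Cebpd had 0.55, 0.34 and -0.35 in Maf1 KO against -0.63, -1.18 and -0.91 in WT (1.08, adjusted p = 0.267).

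Ddit4, an inhibitor of mTORC1 that glucocorticoids and energy stress induce, had 1.54, 0.62 and 0.23 in Maf1 KO and -0.56, -0.79 and -0.24 in WT. The groups did not overlap, and KO1 set the size: the difference was 1.33 (SE 0.29, limma adjusted p = 0.267) and the lowest value with any 1 mouse left out was 0.96. Tsc22d3, the glucocorticoid-induced leucine zipper, differed by 0.77 and Tilz3b, which the table names apart but describes as the same protein, by 1.13. The kinase gene Sgk1 differed by 0.63, and the clock gene Per1, which glucocorticoids also induce, by 0.57. Other members of the list did not share the direction: Fkbp5, a chaperone of the glucocorticoid receptor, differed by -0.20 and Tdo2, tryptophan dioxygenase, by -0.23. The list also holds the gene of the receptor itself, Nr3c1, which differed by -0.18. Igfbp1, an IGF binding protein that insulin represses, differed by 2.05 but with overlap, at 2.19, 3.47 and -0.10 in Maf1 KO against -1.23, -0.75 and 1.40 in WT (SE 0.85, adjusted p = 0.563). Plasma hormones are not part of these data.

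Markers of Kupffer cells, the resident macrophages of the liver, had higher values in Maf1 KO throughout. All 23 measured markers were higher, 18 with an unadjusted p under 0.05 and 17 without overlap, and the median was 0.50 (0.52 after cyclic loess, 0.53 in footprints of the same livers). In bulk tissue, more cells of a type and more RNA per cell cannot be told apart. The summed level of the 23 markers was 98.0, 129 and 104 times the median gene in Maf1 KO and 88.6, 85.8 and 84.9 in WT. All Maf1 KO livers were above all WT livers, with KO2 highest. Without KO2 the list median was 0.37 and 12 markers had an unadjusted p under 0.05, and without WT1 the median was 0.42 with 13 markers.

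Marco, a scavenger receptor of macrophages, differed most, with centred scores of -0.06, 1.64 and -0.22 in Maf1 KO and -2.10, -1.36 and -1.73 in WT (2.19, SE 0.42, limma adjusted p = 0.195). Without KO2 it differed by 1.60. C1qa, a chain of complement C1q, had 2.63, 2.87 and 2.62 in Maf1 KO against 2.10, 2.02 and 2.25 in WT (0.58, SE 0.12, adjusted p = 0.233), and C1qb (0.63) and C1qc (0.64) differed alike without any shared window of 30 coding bases. Timd4, a receptor for dying cells, differed by 0.66 and Clec4f, a lectin of Kupffer cells, by 0.36. The lysozyme genes Lyz1 (0.90) and Lyz2 (0.92) share 40.0% of their coding windows.

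Markers of other liver cell types also had mostly higher values in Maf1 KO. Of 10 blood leukocyte markers measured, 9 were higher, 5 with an unadjusted p under 0.05, with a median of 0.42 and summed levels of 10.8, 13.2 and 10.6 in Maf1 KO against 8.76, 9.39 and 8.82 in WT. Without KO2 or without WT1, 3 had an unadjusted p under 0.05. The largest values were those of the myeloid receptor genes Cd300e (1.65) and Siglece (1.37). Of 24 stellate cell and fibroblast markers, 22 were higher and 9 had an unadjusted p under 0.05, with a median of 0.28, but 0.01 in footprints. Without KO2 the count was 3 and the median 0.19, without WT1 they were 4 and 0.19, and without WT3 5 and 0.35. Their summed levels overlapped between genotypes, with 36.8, 45.8 and 36.4 in Maf1 KO and 31.3, 37.4 and 35.0 in WT. Col1a1, the main chain of type I collagen, had -1.99, -1.74 and -1.79 in Maf1 KO and -2.80, -2.85 and -2.95 in WT (1.03, SE 0.18, limma adjusted p = 0.195). All 6 measured cholangiocyte markers, of 16 listed, were higher, 2 without overlap and 0 with an unadjusted p under 0.05 in limma, and the median was 0.32 (0.30 after cyclic loess, 0.24 in footprints). It was 0.19 without KO2 and 0.21 without WT1. Their summed levels were 26.3, 26.1 and 23.9 in Maf1 KO and 23.3, 21.7 and 23.7 in WT, with KO4 barely above WT3. A large part of these sums was Krt18, at 3.69, 3.66 and 3.50 in Maf1 KO and 3.47, 3.41 and 3.45 in WT. The median score of the list was -0.28. Which cells the Krt18 mRNA came from cannot be told in bulk tissue. Of 22 sinusoidal endothelial markers, 17 were higher and 1 had an unadjusted p under 0.05 (median 0.09). Hepatocyte markers had a median of 0.06, with 12 of 18 higher. Whether the macrophage, leukocyte, stellate cell and cholangiocyte values share a part with the other lists higher in Maf1 KO was not tested.

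**Figure D3:**
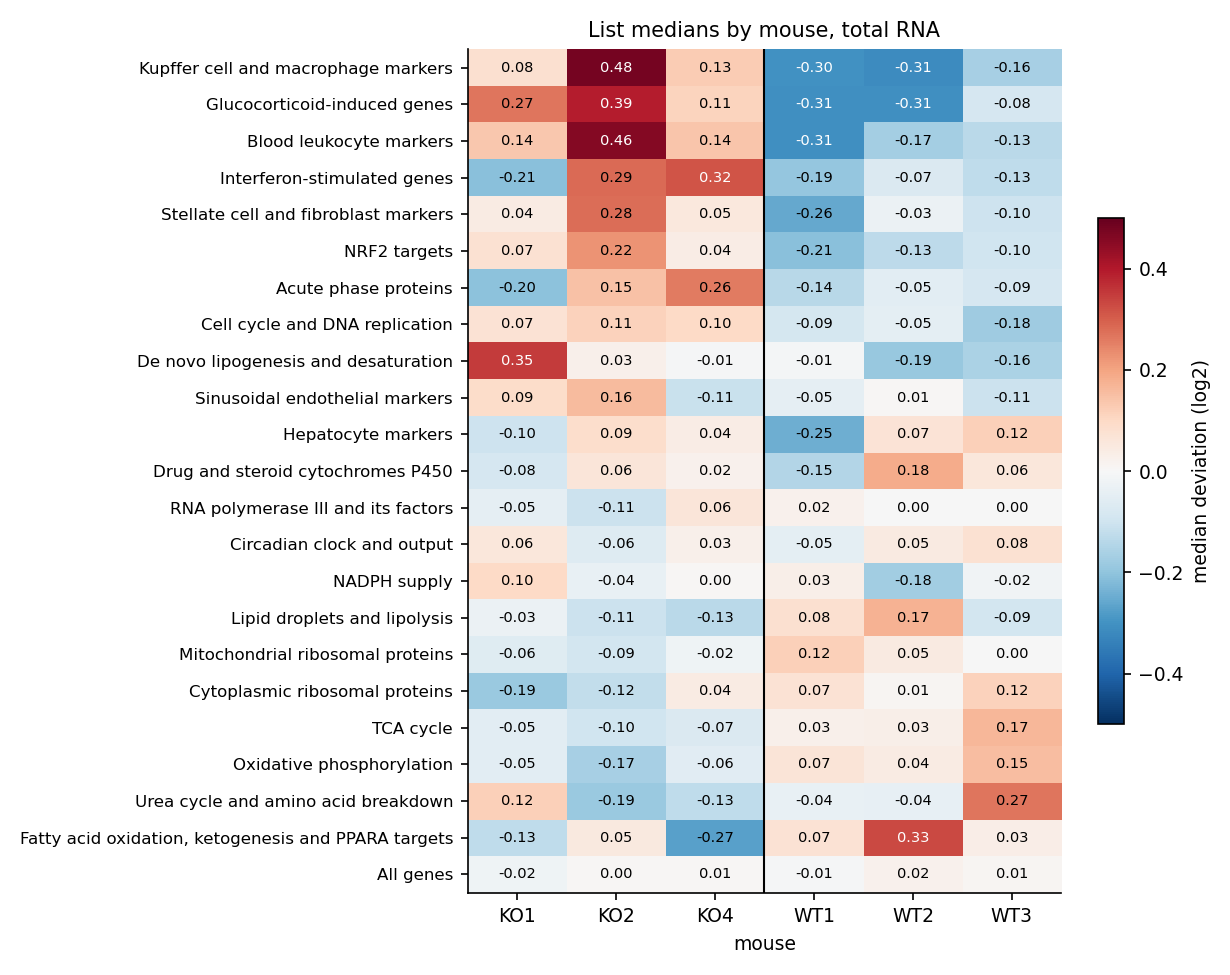
Median deviation of each gene list from the mean of the 6 livers (log2, red above and blue below) in 3 Maf1 KO livers (left) and 3 WT livers (right), with all genes in the last line. KO2 had the highest macrophage median (0.48), KO1 the highest lipogenesis median (0.35), and KO1 lay with the WT livers for interferon-stimulated genes (-0.21).

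Interferon-stimulated genes were higher in KO2 and KO4 but not in KO1. Of 32 measured, 29 were higher and 7 had an unadjusted p under 0.05, with a median of 0.29, while only 2 did not overlap between genotypes. The median deviation was -0.21, 0.29 and 0.32 in Maf1 KO and -0.19, -0.07 and -0.13 in WT. Without KO1 the median was 0.44 and 17 members had an unadjusted p under 0.05, and without KO2 it was 0.13 with 3. Without KO4 1 member had such a p, and without WT1 3. Stat2, a transcription factor of the interferon response, was 1 of the 2 without overlap, at 0.52, 0.46 and 0.36 in Maf1 KO against 0.17, 0.16 and 0.03 in WT (0.33, SE 0.12, limma adjusted p = 0.532). Parp14, the other, differed by 0.36. Oasl2, an oligoadenylate synthetase relative, differed by 0.80 with overlap.

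The core of the interferon response element (GAAA, any 2 bases, then GAAA, on either strand) occurred in 2.98% of the 32851 windows. Of 24 members with a window, 13 held it in any of their windows (54.2%), a count by gene and not by window. That share describes the list and not these livers. Of the 5 members with a window that were higher at an unadjusted p under 0.05 in limma, 3 held it. The stretch of Stat2 is shown because Stat2 is a member that holds the match, with no overlap between genotypes. The capitals mark the match, which lies on the opposite strand 212 bases before the start.
Stat2, chr10:128270251-128270310, plus strand, GRCm38.p6: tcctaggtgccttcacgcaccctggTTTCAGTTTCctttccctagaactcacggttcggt

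Hist1h1d, a gene of the linker histone H1, had centred scores of 1.86, 1.92 and 1.64 in Maf1 KO and 1.11, 0.98 and 0.59 in WT (0.92, SE 0.16, limma adjusted p = 0.181). Hist1h1c had 3.13, 3.06 and 2.88 in Maf1 KO and 2.24, 2.15 and 2.25 in WT (0.81, SE 0.11, adjusted p = 0.108), and Hist1h1e differed by 0.62 (adjusted p = 0.267). Genotypes stood apart in all 3 genes, which share 29.2% to 35.0% of their coding windows with each other. H1f0, also of the H1 family, differed by 0.48 and Hist1h1a, with overlap, by 0.20. All of these but Hist1h1d lie outside the naming rule and were chosen after their values were seen, and no list of H1 genes was tested.

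Genes of fatty acid oxidation mostly had lower values in Maf1 KO. Of 47 measured genes of fatty acid oxidation, ketogenesis and PPARA response, 41 were lower and 6 higher in Maf1 KO, 10 had an unadjusted p under 0.05 with lower values against 2 with higher, and 14 did not overlap, all lower. The median was -0.26, or -0.20 after cyclic loess, and ranged from -0.34 to -0.17 with any 1 mouse left out. The count of 10 was 7 without KO4, 8 without WT2, 15 without KO2 or without WT1, and 16 without WT3. By mouse the list deviated by -0.13, 0.05 and -0.27 in Maf1 KO and by 0.07, 0.33 and 0.03 in WT, so that KO2 lay above WT3. Decr1, a dienoyl-CoA reductase for unsaturated fatty acids, had centred scores of 3.37, 3.54 and 3.47 in Maf1 KO and 3.90, 4.16 and 3.91 in WT (-0.53, SE 0.12, limma adjusted p = 0.275). Its peroxisomal relative Decr2 differed by -0.52. Cpt1a, the carnitine palmitoyltransferase that controls entry of fatty acids into mitochondria, had 3.21, 3.10 and 3.08 in Maf1 KO and 3.45, 3.67 and 3.75 in WT (-0.49, adjusted p = 0.321). Acadm, medium-chain acyl-CoA dehydrogenase, differed by -0.50 and Hadhb, a subunit of the mitochondrial trifunctional protein, by -0.46. Ppara itself differed by -0.04. The 2 higher members were Pdk4 (0.83), which restrains pyruvate oxidation, and Angptl4 (0.73), an inhibitor of lipoprotein lipase that is also on the glucocorticoid list.

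The Cyp4a omega-hydroxylases, PPARA targets that oxidize fatty acids at the far end, gave the largest single values of that list. Cyp4a10 (chromosome 4, 115190869 to 115206254) had centred scores of 2.54, 3.41 and 1.89 in Maf1 KO and 3.51, 4.72 and 3.69 in WT. The groups did not overlap, though KO2 came close to WT1. The difference of -1.36 (SE 0.38, limma adjusted p = 0.405) ran from -1.76 to -0.99 with any 1 mouse left out. Cyp4a31 and Cyp4a32 differed by -1.29 and -1.15, and Cyp4a14, with overlap, by -0.91. Cyp4a12a differed by -0.09 and Cyp4a12b by -0.12.

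Shared windows of 30 coding bases made up 60.1% of Cyp4a10, 48.3% of Cyp4a31 and 66.3% of Cyp4a32 but 0.201% of Cyp4a14. The following stretches show this: 60 bases over 2 exons are the same in the first 3 genes, and Cyp4a14 has 5 mismatches, in capitals. The gap between Cyp4a10 and Cyp4a31 had an SD of 0.07 over the 6 libraries and that between Cyp4a10 and Cyp4a14 an SD of 0.68. Counts of fatty acid oxidation members that include the first 3 genes therefore count shared reads more than once.
Cyp4a10, chr4:115202107-115205178, plus strand, NCBIM37: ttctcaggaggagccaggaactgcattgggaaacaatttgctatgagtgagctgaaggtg
Cyp4a14, chr4:115159874-115162410, minus strand, NCBIM37: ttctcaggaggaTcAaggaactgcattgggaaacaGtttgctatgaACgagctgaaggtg

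Single lower genes came from other functions. Sult1b1, a sulfotransferase of thyroid hormones and phenols (chromosome 5, 87942364 to 87967220), had centred scores of 0.55, 0.20 and 0.91 in Maf1 KO and 1.66, 1.63 and 1.77 in WT (-1.13, SE 0.17, limma adjusted p = 0.117). The WT livers lay close together and above every Maf1 KO liver. Tfrc, the transferrin receptor for iron uptake, had 0.59, 0.49 and 0.66 in Maf1 KO and 1.54, 1.19 and 1.37 in WT (-0.79, SE 0.13, adjusted p = 0.155). Cmbl, a hydrolase, had 2.88, 2.75 and 2.83 in Maf1 KO and 3.55, 3.38 and 3.43 in WT (-0.63, SE 0.11, adjusted p = 0.190). The coagulation factor gene F11 differed by -0.56 and Enpp2, the gene of the secreted enzyme autotaxin, by -0.66. In Phlda1 the difference of -1.11 was -0.62 without WT1, which had 3.03 against 1.68 and 1.44 in the other WT livers. Serpina12, which encodes vaspin, and Sucnr1, a succinate receptor, had lower values in total RNA (-0.87 and -0.62) and higher values in footprints (0.50 and 0.36).

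**Figure D4:**
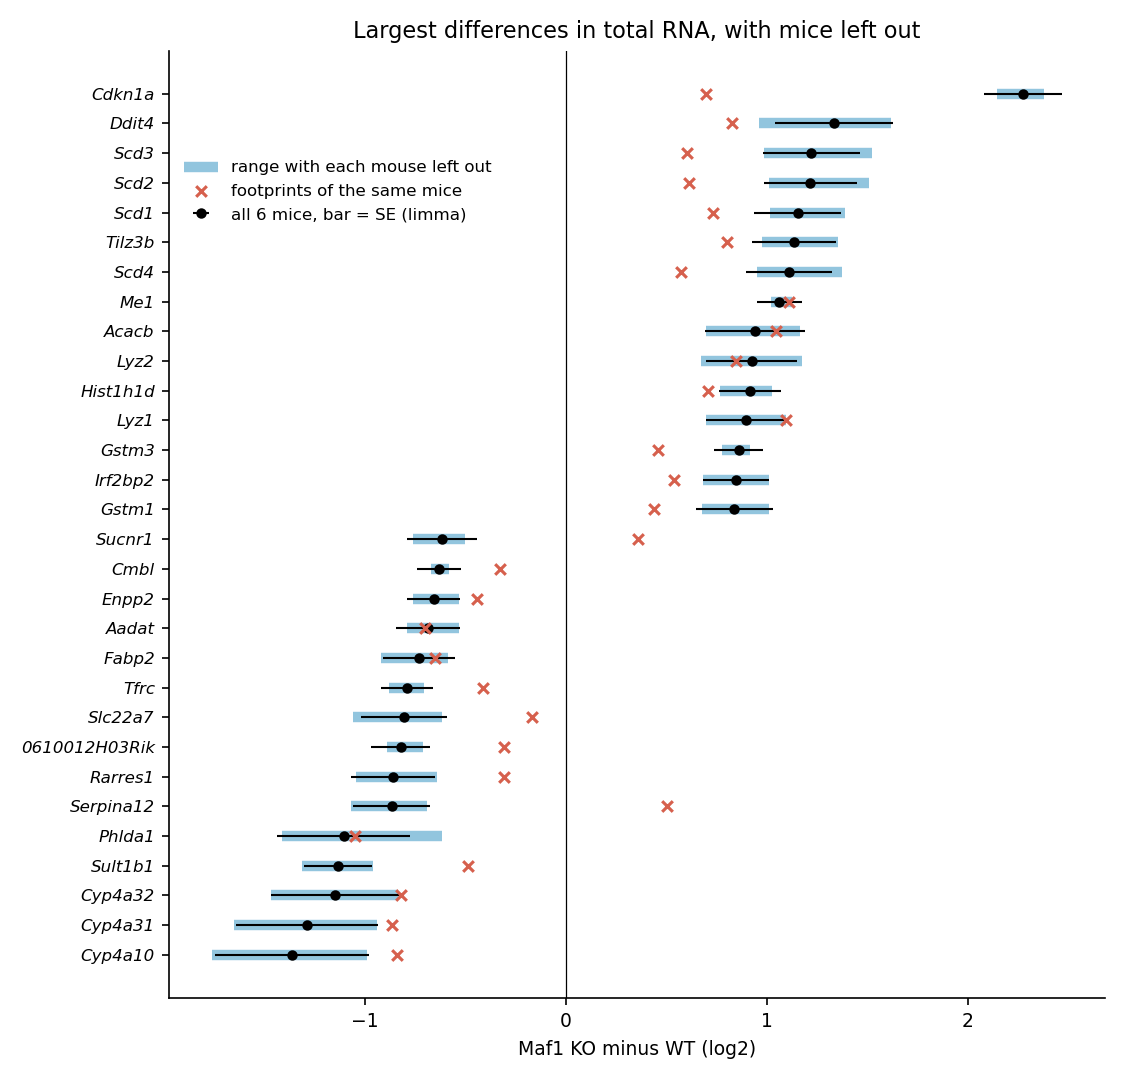
Log2 difference (Maf1 KO minus WT, x axis) of genes with the largest differences among those above the median gene with an unadjusted p under 0.05 and no overlap, and of Cdkn1a. Black points are all 6 livers with the limma SE, pale bars the range with each mouse left out, and crosses the footprints of the same livers, which lie on the other side of 0 for Serpina12 and Sucnr1.

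Among lipid droplet genes, 13 of 18 were lower (median -0.10) and 2 had an unadjusted p under 0.05, or 4 without WT3. Cidec, which fuses lipid droplets, had centred scores of -3.33, -3.04 and -2.91 in Maf1 KO and -1.62, -2.01 and -2.49 in WT (-1.05, SE 0.26, limma adjusted p = 0.321). G0s2, an inhibitor of the main triglyceride lipase, had 3.75, 3.26 and 4.56 in Maf1 KO and 4.49, 5.34 and 4.93 in WT (-1.07, adjusted p = 0.416), with KO4 above WT1. Cfd, adipsin, a gene of fat cells, had -3.89, -3.03 and -3.01 in Maf1 KO and -1.91, -0.58 and -2.76 in WT (-1.56), with WT2 the highest. Of 5 fat cell genes measured, 3 were lower and 2 higher, and Lipe, hormone-sensitive lipase, differed by 0.28. Their summed level of 165, 158 and 119 in Maf1 KO and 162, 242 and 157 in WT was nearly all Car3, carbonic anhydrase 3, a gene also abundant in liver.

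Lists of abundant housekeeping mRNAs were shifted by small amounts in the direction of the abundance trend. Of 80 genes of oxidative phosphorylation, 74 were lower, 12 with an unadjusted p under 0.05 against 1 higher, and 20 did not overlap, all lower. The count of 12 was 2 without WT3, 4 without KO2 or without WT1, and 7 without WT2. Their median was -0.17, and -0.09 after cyclic loess. Ndufb3, a complex I subunit, had 3.17, 3.28 and 3.35 in Maf1 KO and 3.81, 3.52 and 3.59 in WT (-0.37, limma adjusted p = 0.491). The higher member was Cox7a1 (0.74), a cytochrome oxidase isoform best known from muscle. Of 18 TCA cycle genes, 16 were lower (median -0.16, and -0.09 after cyclic loess), and of 46 genes that break down amino acids or make urea 38 were lower (median -0.18, and -0.09 after cyclic loess). The last list was -0.06 without WT3, whose median deviation was 0.27, and -0.09 without KO2.

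Of 81 cytoplasmic ribosomal protein genes, 74 were lower, 6 with an unadjusted p under 0.05 and 9 without overlap. The count of 6 was 0 without WT1, 1 without KO1, 2 without KO2 and 12 without KO4. The median was -0.14, and -0.06 after cyclic loess, beside -0.50 in footprints. Median deviations were -0.19, -0.12 and 0.04 in Maf1 KO and 0.07, 0.01 and 0.12 in WT, with KO4 above WT2. Rpl9 had 3.63, 3.54 and 3.46 in Maf1 KO and 4.05, 3.85 and 3.72 in WT (-0.33, limma adjusted p = 0.532). Of 75 mitochondrial ribosomal protein genes, 62 were lower, 7 with an unadjusted p under 0.05 (median -0.10, and -0.04 after cyclic loess). The count of 7 was 2 without KO2 and 3 without WT1 or without WT3. How much of these shifts goes with the abundance trend was not tested beyond the values after cyclic loess.

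**Figure D5:**
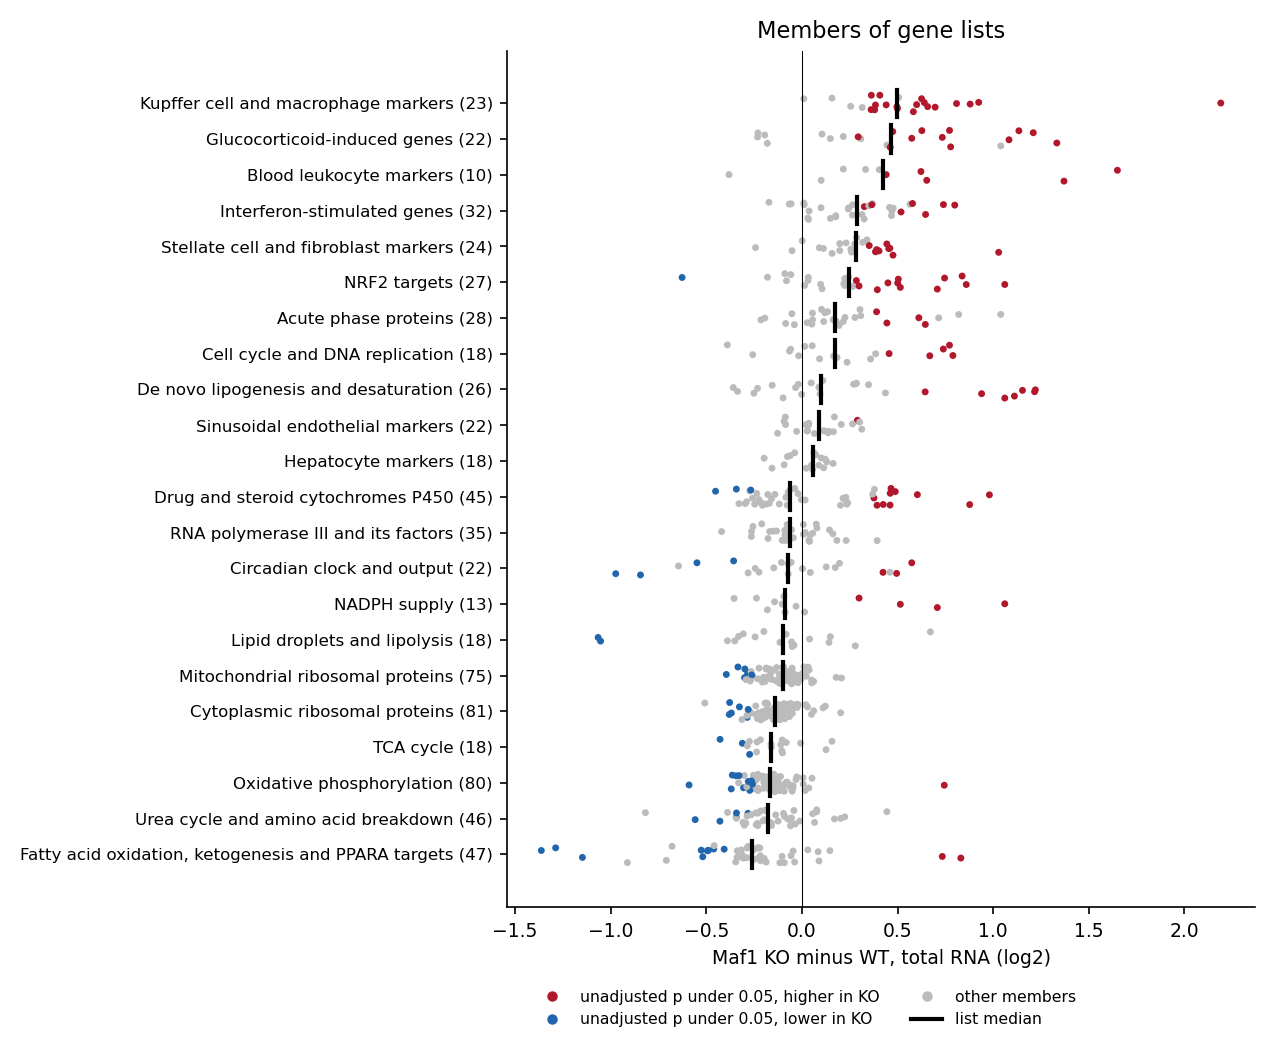
Log2 difference in total RNA (Maf1 KO minus WT, x axis) of each measured member of the gene lists shown (number measured in brackets). Red and blue mark members with an unadjusted p under 0.05, grey the others, and a black bar the list median. The medians run between 0.50 for macrophage markers and -0.26 for fatty acid oxidation.

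The machinery that MAF1 acts on held no gene past the test. Of 35 genes of RNA polymerase III and its factors, 15 were higher and 20 lower, with a median of -0.06, and none had an unadjusted p under 0.05 in limma. The extremes were Polr3g (-0.42), a polymerase subunit, and Snapc4 (0.39), a subunit of the complex for small nuclear RNA genes. Polr3a, the largest subunit, had centred scores of -0.47, -0.86 and -0.59 in Maf1 KO and -0.60, -0.48 and -0.60 in WT (-0.08, SE 0.15). Brf1, a subunit of the initiation factor TFIIIB, differed by -0.05 and Tbp, the TATA-binding protein, by 0.04. Of other genes tied to MAF1 in earlier work, Elk1 differed by 0.44 in total RNA but by -3.75 in footprints (limma adjusted p = 0.740). Its footprint scores were all far below the median gene, at -5.73, -8.11 and -8.15 in Maf1 KO and -4.12, -3.00 and -3.62 in WT. A difference between such low values is imprecise. Nnmt, nicotinamide N-methyltransferase, varied between single mice of both genotypes, at -1.54, 1.94 and 3.09 in Maf1 KO and 2.67, 2.52 and -0.73 in WT (-0.33, SE 1.14, adjusted p = 0.962).

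Around the deleted gene (chromosome 15, 76181724 to 76184810, NCBIM37), few of the neighbours analysed within 1 Mb had an unadjusted p under 0.05 in limma. Gm35339, the gene just past the end of Maf1, was not analysed here. Of 50 measured genes within 1 Mb, 1 was higher and 1 lower at an unadjusted p under 0.05, with a median of -0.0048. The higher was 9030619P08Rik (0.96) and the lower BC024139 (-0.42). Within 5 Mb, 9 of 119 were higher and 3 lower at an unadjusted p under 0.05, beside 4.7% and 3.78% of all genes. In 16 of the 119 the Maf1 KO values lay wholly above WT and in 5 wholly below, beside 6.92% and 7.03% of all genes. Over the whole chromosome, 10.4% of 431 genes had an unadjusted p under 0.05, beside 8.48% of all genes.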

How the data were processed

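The authors aligned tags to fly (dm6, BDGP6) and mouse (mm9) sequence, removed tags common to both, counted tags on coding sequences, and normalized to aligned tags and by TMM (edgeR in the submitters' processing notes). No aligner is named in those notes or methods (not given in the sources used here). Deposited values are log2 normalized tag counts per transcript, and whether they include the fly correction is not stated in the table. A library-wide factor drops out on centring. Of 26260 transcripts, means were taken per gene name (11587 genes, 4712 with 1 transcript), and each library was centred on its median. Depth is unknown. No sample columns were left unused (0).

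Genotypes were compared with limma 3.58.1 in R 4.3.3 (lmFit, eBayes with a variance trend), genotype being the only term, with Benjamini-Hochberg adjustment. The labels name separate mice. On simulated data for this comparison with 11587 genes, limma called 87% of 100 genes given a log2 change of 1, and 100% of those given 2. It also called 4 unchanged genes. The simulated noise was independent and normal, with the spread that limma had fitted, and 200 genes were changed. These shares therefore check the code and do not give the power in the real livers. Positions, coding sequences and shared windows came from NCBIM37, the assembly mm9 names, and promoters from RefSeq (GRCm38.p6).

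The gene lists (55), tests and members were chosen with earlier results of these data known. Named genes were those past the adjusted threshold, the 15 largest differences in each direction with an unadjusted p under 0.05, no overlap and a mean above the median gene, up to 4 members of each list with the smallest p and its defining members, and genes of earlier MAF1 work. Other list members named were chosen after their values were seen. Some genes that the rule names are not reported here. Alternatives covered centring, quantile normalization, low genes, top transcript, prior, threshold, replicate block, all 12 libraries and mice left out. Cyclic loess was added after the data were seen.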

Additional observations from a re-analysis of the deposited data

How the results depend on the processing

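The count of genes past an adjusted p of 0.05 (2) was 32 without centring, 1 without genes below the 0.25 quantile (Me1, adjusted p = 0.0322, Cdkn1a then not being tested), 1 with a common prior, 0 in a fit of all 12 libraries (358 higher and 232 lower at an unadjusted p under 0.05 in limma), 0 without KO1 and WT3 (473 and 459) and 5 after cyclic loess (Cdkn1a, Me1, Gstm3, Cebpb and Hist1h1c). It stayed at 2 with quantile normalization, the top transcript, a robust prior and a threshold of 0.1. Leaving out 1 mouse gave 0 to 4, with 0 without KO1 (555 higher and 512 lower at an unadjusted p under 0.05), 4 without KO2, 3 without KO4 and 1 without WT1, WT2 or WT3. Cdkn1a had adjusted p = 0.925 in the fit of all 12 libraries, where footprint libraries enter the spread, and 0.185 without KO1 and WT3. For Me1 these values were 0.0903 and 0.273. With each mouse left out, adjusted p ranged from 0.0201 to 0.0648 for Cdkn1a, which missed the threshold without KO1, and from 0.0512 to 0.118 for Me1.

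With the replicate number as a block, 53 genes passed (27 higher, 26 lower). KO4 and WT3 share no number, so only 2 pairs exist. Deviations of same-numbered mice correlated at 0.23 (KO1 and WT1) and 0.27 (KO2 and WT2), those of KO4 and WT3 at 0.11, and those of the other 6 combinations at -0.19 to -0.04. Deviations were taken from the mean of each genotype, so a mouse cannot correlate with all mice of the other genotype in the same direction. The signs of these correlations are thus partly fixed in advance and do not decide whether mice were paired. The labels do not say that numbers pair the animals. No direction of a called value changed sign in any alternative. With 3 mice a side and an unknown depth, the median SE of 0.16 sets the precision, and low genes were the least precise.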

Other observations

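Clock genes had values in both directions at the single hour sampled. Of 22 measured, 3 were higher and 4 lower in Maf1 KO at an unadjusted p under 0.05 (median -0.07). Dbp, an output factor of the clock, had centred scores of -1.22, -1.49 and 0.23 in Maf1 KO and -0.05, -0.08 and 0.58 in WT (-0.97, limma adjusted p = 0.557), with KO4 above 2 of the WT livers. Nr1d1, which encodes the repressor REV-ERB alpha, had -2.39, -1.33 and -2.67 in Maf1 KO and -1.31, -0.97 and -1.58 in WT (-0.84, adjusted p = 0.532). Genotypes overlapped in both, and both were chosen for mention with their values in view. Arntl, the gene of BMAL1, which REV-ERB alpha represses, had -0.78, -0.75 and -1.01 in Maf1 KO and -1.41, -1.19 and -1.20 in WT (0.42, adjusted p = 0.525), without overlap. Per2 differed by 0.04. At an unadjusted p under 0.05 in limma, 1 clock gene was higher and 0 were lower without KO1, 0 and 2 without KO2, and 2 and 1 without WT3.

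Cytochromes P450 of drug and steroid metabolism had 10 of 45 members higher and 3 lower at an unadjusted p under 0.05, with a median of -0.06 (0.03 after cyclic loess). These counts were 2 and 1 without KO2, 2 and 6 without WT1, 6 and 2 without KO1, and 6 and 1 without WT2. The median was 0.06 without KO1 and also without WT2. Cyp17a1, a steroid hydroxylase that is low in mouse liver, had -1.93, -2.32 and -1.75 in Maf1 KO and -2.95, -3.32 and -2.67 in WT (0.98, SE 0.24, limma adjusted p = 0.329). The acute phase list had 23 of 28 members higher (median 0.17, but -0.03 in footprints). Without KO4 its median was 0.05. Its median deviations were -0.20, 0.15 and 0.26 in Maf1 KO and -0.14, -0.05 and -0.09 in WT, KO1 lying with the WT livers as it did for interferon-stimulated genes. Orm2, an acute phase glycoprotein, had 3.06, 3.34 and 3.63 in Maf1 KO and 2.70, 2.51 and 2.89 in WT (0.64, limma adjusted p = 0.347). Of its coding windows, 24.7% also occur in Orm1 or Orm3. Summed levels of 4 erythroid genes were 35.5, 46.3 and 49.8 in Maf1 KO and 81.6, 63.8 and 40.5 in WT.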
